A study of Mus musculus with 9 samples.

Results

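The core circadian clock genes were examined in mouse embryonic stem cells in which Suz12, a core subunit of Polycomb repressive complex 2, carried an auxin-inducible degron. The 10 genes were taken from a fixed list and matched by symbol through their gene identifiers: Per1, Per2, Per3, Cry1, Cry2, Arntl (also called Bmal1), Clock, Nr1d1, Nr1d2 and Dbp. Each was found once among the 48440 genes of every count table, and all 10 were among the 20838 genes with enough counts to be tested. All cells were J1 cells of the genotype Suz12-AID, grown on gelatin in serum medium with leukaemia inhibitory factor and both 2i inhibitors, PD0325901 and CHIR99021. Poly(A) RNA was sequenced in 3 groups of 3 biological replicates. Mock is the control group, and Auxin received 50 µM indole-3-acetic acid for 96 h. Re-introduction received the same 50 µM for 96 h and then had auxin washed out for 4.5 h. The degron is shared by all groups, Mock included. What Mock received, the auxin receptor used, whether the line is 1 clone and the hour of harvest are not given in the sources used here. Washing out auxin includes a change of medium by its nature, and no group with a medium change alone was analysed here, so the 2 cannot be told apart.

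The mammalian clock is a delayed negative feedback loop. CLOCK and ARNTL pair and activate genes that carry E-boxes, among them the Per and Cry genes, whose proteins return to the nucleus and inhibit the pair. A second loop runs through the nuclear receptors NR1D1 and NR1D2, which repress Arntl, and DBP activates genes that carry D-boxes. In pluripotent stem cells the loop is known not to drive the robust daily rhythm that appears as cells differentiate, although its genes are transcribed. Several of these genes, Per1 and Per2 above all, are also known to respond within hours to serum, hormones and medium changes in many cells.

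The promoter windows of the 4 members in which a clock-related motif was found are shown because the E-box, D-box and RORE are the elements through which the loop is known to act. They run from 250 bases before to 50 bases after a RefSeq start (GRCm38.p6, the mm10 build), on the gene's own strand, with the motifs in capitals. The Per1 window (chr11:69098699-69098998, plus strand) holds an E-box 166 bases and a D-box 24 bases before the start. The Per3 window (chr4:151044616-151044915, minus strand) holds D-boxes 205 and 158 bases before it, and the Cry1 window (chr10:85185005-85185304, minus strand) an E-box 60 bases before it. The Arntl window (chr7:113207261-113207560, plus strand) holds an RORE, the element bound by ROR and NR1D receptors, whose first base is base 27 of the transcript.
Per1: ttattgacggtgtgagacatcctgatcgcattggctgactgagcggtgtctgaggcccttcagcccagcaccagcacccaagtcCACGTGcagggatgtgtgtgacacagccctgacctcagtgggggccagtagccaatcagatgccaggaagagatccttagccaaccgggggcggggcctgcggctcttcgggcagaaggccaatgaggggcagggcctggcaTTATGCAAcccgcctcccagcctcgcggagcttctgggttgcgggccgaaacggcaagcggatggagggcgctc
Per3: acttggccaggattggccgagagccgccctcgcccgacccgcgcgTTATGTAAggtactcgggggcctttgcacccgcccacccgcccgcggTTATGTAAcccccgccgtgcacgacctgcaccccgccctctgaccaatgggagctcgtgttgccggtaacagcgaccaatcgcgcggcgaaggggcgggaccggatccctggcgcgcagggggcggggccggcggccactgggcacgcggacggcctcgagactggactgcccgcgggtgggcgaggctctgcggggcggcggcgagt
Cry1: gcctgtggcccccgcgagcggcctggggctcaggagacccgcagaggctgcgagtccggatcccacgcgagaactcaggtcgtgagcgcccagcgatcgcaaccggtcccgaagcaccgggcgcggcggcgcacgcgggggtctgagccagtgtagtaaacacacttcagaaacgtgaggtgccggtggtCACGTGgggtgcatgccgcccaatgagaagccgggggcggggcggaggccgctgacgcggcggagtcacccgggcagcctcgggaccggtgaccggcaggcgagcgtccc
Arntl: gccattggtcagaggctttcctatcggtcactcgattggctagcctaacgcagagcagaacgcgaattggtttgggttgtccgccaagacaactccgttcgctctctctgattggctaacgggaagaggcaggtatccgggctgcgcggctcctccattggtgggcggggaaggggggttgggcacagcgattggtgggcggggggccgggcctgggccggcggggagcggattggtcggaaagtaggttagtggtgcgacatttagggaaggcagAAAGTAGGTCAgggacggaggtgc
RefSeq windows were matched for 9 members, all but Per2, 13 windows in all, and 4 of these windows held a match. Per1 and Arntl each had another window without a match, and no window of Cry2, Clock, Nr1d1, Nr1d2 or Dbp held one. The motifs searched on both strands were the E-box CACGTG, the D-box TTATGNAA, the RORE, the cyclic AMP element TGACGTCA, a glucocorticoid element, a heat shock element and an amino acid response element TGATGNAA. Among all 32851 mouse windows of this length, the E-box was in 7.15%, the D-box in 3.38% and the RORE in 0.384%. The matches do not overlap each other, and they describe letters in these windows, not binding.

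Library totals, with both mates of a pair counted, ran from 44341283 to 113931419. Raw counts of the members ran from 110 (Nr1d1 in Auxin replicate 3) to 5316 (Clock in Auxin replicate 1). Levels below are normalised read counts (CPM). Auxin replicate 2 stood apart from the other Auxin libraries: chi-square per degree of freedom against them was 63.1 and 79.0, in a range of 4.47 to 79.0 over all replicate pairs. Log2 levels of genes, each taken relative to the gene's own mean over the 9 libraries, also followed exon length differently by library. These relative levels changed by -0.25 to -0.17 in Mock and 0.08 to 0.10 in Re-introduction for each doubling of length. In Auxin replicates 1 to 3 they changed by 0.15, 0.01 and 0.15. The fit used 10177 protein-coding genes averaging above 2 log2 CPM. All 10 pluripotency markers were above 1 CPM somewhere, with summed levels of 6154 to 6359 CPM in Mock, 7378 to 7995 in Auxin and 5818 to 5884 in Re-introduction. Primitive endoderm markers summed to 259 to 265, 143 to 157 and 208 to 215 CPM, and trophoblast markers to 64.2 to 67.4, 108 to 119 and 110 to 116. Mesoderm markers summed to 13.0 to 14.1, 3.02 to 3.55 and 4.34 to 5.48 CPM, neural markers to 118 to 127, 94.9 to 107 and 89.1 to 92.3, and fibroblast markers to 22 to 24.6, 44.2 to 53.5 and 41.0 to 42.2. Under 1 CPM in every library were 2 of 8 primitive endoderm, 3 of 7 trophoblast, 3 of 6 mesoderm, 3 of 7 neural and 6 of 8 fibroblast markers, and Neurog2 and S100a4 were at 0 in all. These sums follow the most abundant genes of each list, and single markers went other ways. In Auxin against Mock 7 of 8 primitive endoderm markers were called higher and 1 lower, and 3 of 6 tested trophoblast markers higher and 3 lower. Of 4 tested fibroblast markers, 1 was called higher and 2 lower in Re-introduction against Mock. The degron acts on the protein, which was not measured: Suz12 mRNA had means of 133, 141 and 168 CPM in Mock, Auxin and Re-introduction, so depletion cannot be checked here. The part of these markers in the results below was not tested, and in bulk RNA fewer cells of a type and less RNA per cell cannot be told apart.

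After 96 h in auxin, most of the clock genes stood at other levels than in Mock, in both directions. Per2 rose 5.74-fold and Nr1d1 fell 7.41-fold, while Per1 showed no called change. In Auxin against Mock, 7 of the 10 members were higher, 2 were lower (Nr1d1 and Dbp) and 1 (Per1) was not called, at an adjusted p under 0.05 in edgeR's quasi-likelihood test. Over all genes tested the share called was 73.2%, with 38.4% higher and 34.8% lower, so that a call in itself says little about a member. With total counts in place of TMM factors the calls split into 9748 higher and 5662 lower, against 7996 and 7261. The ranges of the 3 libraries did not overlap for 8 members, against 74.3% of all genes. At least a 2-fold called change was seen for 4 members (Per2, Per3, Clock and Nr1d1), against 31.8% of all genes. The median of the log2 fold changes was 0.63 over the members and 0.05 over all genes. The latter is not matched for exon length: most members lie in length deciles with medians of 0.21 to 0.62, as given below.

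Within 4.5 h of washout some of these levels moved back toward Mock, and others did not. In Re-introduction against Auxin, 3 members were higher (Nr1d1, Dbp and Cry1), 3 were lower (Per2, Per3 and Cry2) and 4 were not called (Per1, Arntl, Clock and Nr1d2). The share called over all genes was 50.9%, with 25.5% in each direction. Ranges did not overlap for 7 members, against 58.2% of genes, and only Nr1d1 changed at least 2-fold, against 11.0% of genes. The median was 0.09 over the members and 0.003 over all genes. Without Re-introduction replicate 3 the number of members called was 3 in place of 6, since Cry1, Dbp and Per3 were no longer called. After removal of the length and GC trends together with the replicate block it was 4, without Per3 and Dbp.

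In Re-introduction against Mock, 7 members were higher, 2 were lower (Nr1d1 and Dbp) and 1 (Per1) was not called. The share called over all genes was 68.1%, with 34.7% higher and 33.4% lower. Ranges did not overlap for 9 members, against 75.2% of genes, and 3 changed at least 2-fold (Per2, Per3 and Clock), against 22.4%. The median was 0.69 over the members and 0.03 over all genes, again not matched for exon length. Most members lie in length deciles with medians of 0.17 to 0.58 in this comparison. Any pair of these comparisons shares the libraries of a group, so their values are given side by side only. Total counts in place of TMM factors moved the median of all genes to 0.26 in Auxin against Mock, -0.08 in Re-introduction against Auxin and 0.16 in Re-introduction against Mock.

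**Figure D1:**
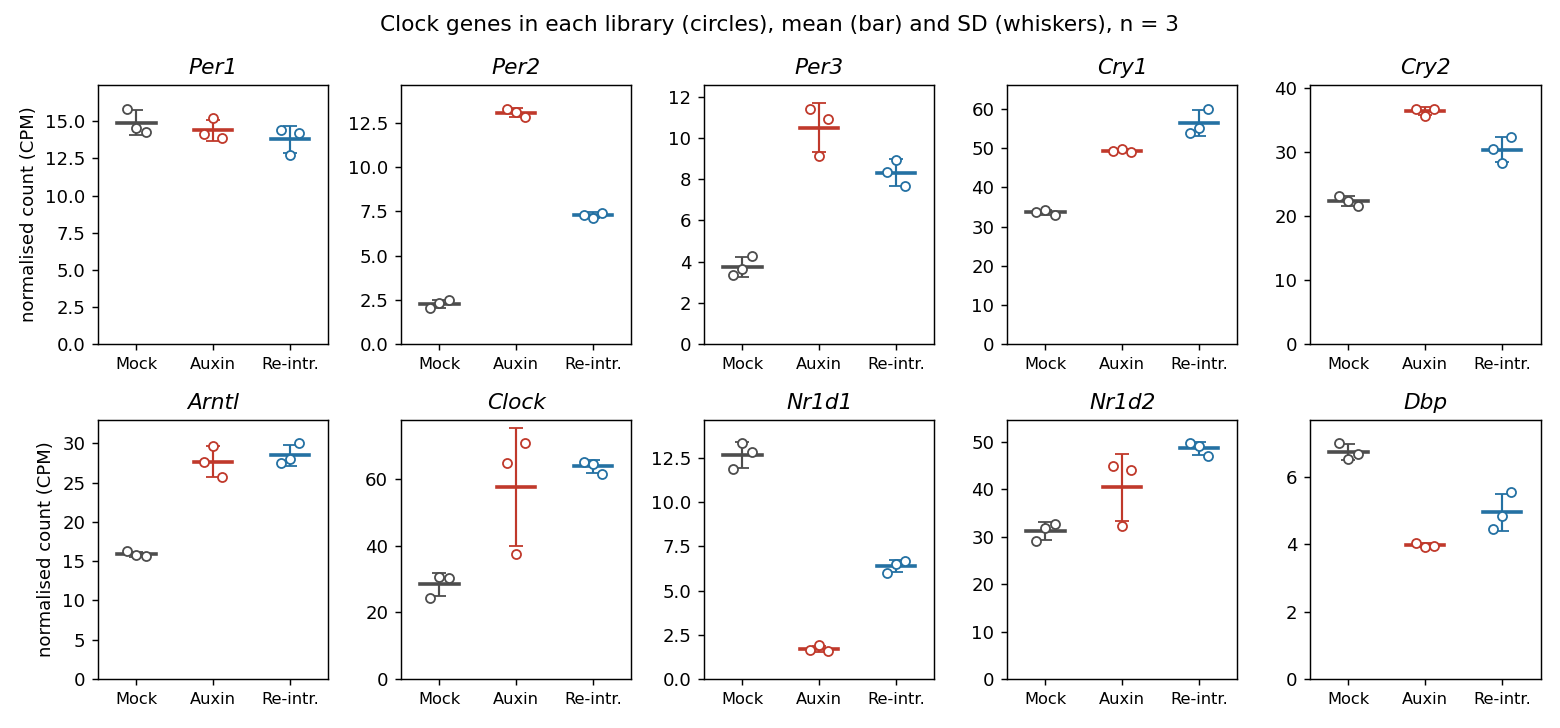
Normalised counts (CPM, linear axis from 0 in each panel) of the 10 clock genes in the 9 libraries. Circles are libraries, bars are means and whiskers are SD (n = 3). Nr1d1 is lowest in Auxin and Per2 highest there, Per1 overlaps between the 3 groups, and Clock and Nr1d2 are lower in Auxin replicate 2 than in the other Auxin libraries.

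Nr1d1, which encodes the repressor REV-ERB alpha, fell furthest of the members (ENSMUSG00000020889.11, chromosome 11, 98767932 to 98775333, minus strand, mm10). It stood at 11.9, 13.3 and 12.9 CPM in Mock, 1.62, 1.90 and 1.61 CPM in Auxin, and 6.02, 6.50 and 6.69 CPM in Re-introduction. The 3 groups did not overlap, and the Re-introduction libraries lay between the other groups. The log2 fold change was -2.89 ± 0.095 (SE) in Auxin against Mock (adjusted p = 7.05e-10). After washout it rose 3.74-fold, by 1.90 ± 0.097 (adjusted p = 6.47e-08), and remained 1.98-fold below Mock (-0.99 ± 0.085, adjusted p = 1.88e-06). Over the 17 alternatives run, the Auxin against Mock value ranged from -2.98 to -2.68 and was called in all 17. The exons of Nr1d1 share 263 bases with Thra on the opposite strand, which the counting could not separate. Thra, a thyroid hormone receptor gene, had means of 9.47, 6.84 and 6.86 CPM in Mock, Auxin and Re-introduction. It was not called after washout (log2 fold change 0.003), where Nr1d1 rose.

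Nr1d2, the paralogue that encodes REV-ERB beta, did not fall with Nr1d1 (ENSMUSG00000021775.10, chromosome 14, 18204054 to 18239127, minus strand). Its levels were 29.0, 31.8 and 32.7 CPM in Mock, 44.9, 32.2 and 44.1 CPM in Auxin, and 49.7, 49.1 and 47.1 CPM in Re-introduction. Auxin replicate 2 lay within the Mock range, and every Re-introduction library was above every other library. The gene was higher in Auxin than in Mock by 0.37 ± 0.108 (SE, log2, adjusted p = 0.00887), and higher in Re-introduction than in Mock by 0.64 ± 0.109 (adjusted p = 0.000312). The step after washout, 0.27 ± 0.108, was not called (adjusted p = 0.0598). The first of these calls was lost without Auxin replicate 1 (0.28, adjusted p = 0.0519) and with the length and GC trends removed (0.10, adjusted p = 0.139), which also lowered the Re-introduction against Mock value to 0.26. The washout step was called under 6 of the 17 alternatives, DESeq2 size factors and the DESeq2 Wald test among them (0.28 in each), and was 0.11 without Auxin replicate 2.

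The ratio of the paralogues within a library does not depend on how whole libraries are scaled. It can shift with the per-library length and GC trends, which were not removed from any ratio given here. Per kilobase of exon not shared with another gene, Nr1d1 stood at 0.724 ± 0.0245 (SD, n = 3) of Nr1d2 in Mock, 0.0780 ± 0.0233 in Auxin and 0.235 ± 0.0186 in Re-introduction. The 3 groups did not overlap. With 3 libraries against 3, an exact two-sided permutation test cannot give less than p = 0.1, the value reached in each comparison (0.125 after Benjamini-Hochberg adjustment over the 15 ratio tests made).

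The Period genes, which encode the repressors that give the loop its delay, each behaved differently. Per2 (ENSMUSG00000055866.9, chromosome 1, 91415982 to 91459324, minus strand) stood at 2.04, 2.34 and 2.49 CPM in Mock, 13.3, 13.1 and 12.8 CPM in Auxin, and 7.32, 7.11 and 7.44 CPM in Re-introduction. The groups did not overlap, and the spread within each was small beside the steps between them. Per2 rose by 2.52 ± 0.085 (SE, log2) in Auxin against Mock (adjusted p = 7.82e-10). It fell 1.79-fold after washout (-0.84 ± 0.078, adjusted p = 5.96e-06) and was then still 3.20-fold above Mock (1.68 ± 0.085, adjusted p = 4.36e-08). Each of these calls held in all 17 alternatives, with the Auxin against Mock value between 2.28 and 2.73.

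Per3 (ENSMUSG00000028957.12, chromosome 4, 151003652 to 151044665, minus strand) stood at 3.35, 3.63 and 4.27 CPM in Mock, 11.4, 9.14 and 10.9 CPM in Auxin, and 8.33, 8.95 and 7.68 CPM in Re-introduction. All Auxin and Re-introduction libraries were above all Mock libraries, and the gap between the lowest Auxin and the highest Re-introduction library was small. The rise in Auxin was 1.49 ± 0.115 (SE, log2, adjusted p = 3.9e-07), and in Re-introduction against Mock 1.15 ± 0.116 (adjusted p = 6.15e-06). With the length trend alone removed the latter was 0.66, still called. The fall after washout, -0.34 ± 0.111 (adjusted p = 0.0252), was not called without Auxin replicate 1 (-0.28), Auxin replicate 3 (-0.31), Re-introduction replicate 1 (-0.35) or Re-introduction replicate 3 (-0.29), nor with the length and GC trends removed (-0.25, adjusted p = 0.0585).

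Per1, the Period gene best known for acute induction (ENSMUSG00000020893.17, chromosome 11, 69095217 to 69109960, plus strand), stood at 15.9, 14.5 and 14.3 CPM in Mock, 14.2, 15.2 and 13.8 CPM in Auxin, and 14.4, 12.8 and 14.2 CPM in Re-introduction. The 3 groups overlapped. The log2 fold changes and 95% intervals were -0.05 (-0.21 to 0.11) in Auxin against Mock, -0.06 (-0.22 to 0.10) in Re-introduction against Auxin and -0.11 (-0.27 to 0.05) in Re-introduction against Mock. Adjusted p-values were 0.543, 0.513 and 0.190. The direction against Mock depended on scaling: with total counts alone Per1 was called higher in Auxin (0.16, adjusted p = 0.0412) and was at 0.02 in Re-introduction against Mock. With the length trend removed it was called lower in both (-0.27 and -0.33). With the length and GC trends removed it was called lower only in Re-introduction against Mock (-0.16, adjusted p = 0.0307).

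Set against Per1 within the same library, per kilobase of exon, Per2 stood at 0.149 ± 0.0225 (SD, n = 3) in Mock, 0.874 ± 0.0400 in Auxin and 0.509 ± 0.0238 in Re-introduction, without overlap. Per3 stood at 0.148 ± 0.0255, 0.429 ± 0.0663 and 0.356 ± 0.0492 of Per1. Here both treated groups lay above Mock, but Auxin and Re-introduction overlapped (exact two-sided permutation p = 0.2, adjusted 0.231). These ratios do not depend on how whole libraries are scaled, but the length and GC trends were not removed from them.

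The Cryptochrome genes, which encode the partners of the PER proteins in repression, both rose in Auxin and then moved in opposite directions. Cry1 (ENSMUSG00000020038.9, chromosome 10, 85131702 to 85185054, minus strand) stood at 33.7, 34.3 and 32.9 CPM in Mock, 49.4, 49.8 and 48.9 CPM in Auxin, and 53.9, 55.0 and 60.1 CPM in Re-introduction. Every group was apart from the others, with Re-introduction the highest. Cry1 rose by 0.55 ± 0.055 (SE, log2) in Auxin against Mock (adjusted p = 2.96e-06) and by 0.74 ± 0.055 in Re-introduction against Mock (adjusted p = 5.73e-07). The further rise after washout, 0.19 ± 0.054 (adjusted p = 0.0125), was not called with total counts alone (0.11, adjusted p = 0.0997) or without Re-introduction replicate 3 (0.13, adjusted p = 0.0788). Cry1 lies in a length class whose median fell in Auxin, and its rise was 0.68 with the length and GC trends removed.

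Cry2 (ENSMUSG00000068742.11, chromosome 2, 92403646 to 92434043, minus strand) stood at 23.1, 22.4 and 21.6 CPM in Mock, 36.9, 35.8 and 36.9 CPM in Auxin, and 30.6, 28.4 and 32.4 CPM in Re-introduction. The groups did not overlap, and Re-introduction lay between the others. The log2 fold changes were 0.70 ± 0.060 (SE) in Auxin against Mock (adjusted p = 8.87e-07), -0.26 ± 0.060 after washout (adjusted p = 0.00382) and 0.44 ± 0.060 in Re-introduction against Mock (adjusted p = 5.87e-05). Each was called in all 17 alternatives, although removal of the length trend lowered the first and last to 0.43 and 0.17, and removal of the length and GC trends brought the washout step to -0.17. Cry2 exons share 295 bases with D930015M05Rik on the opposite strand, which averaged only 0.311, 0.608 and 0.663 CPM. The Cry1 to Cry2 ratio per kilobase was 3.00 ± 0.0836 (SD, n = 3) in Mock, 2.70 ± 0.0713 in Auxin and 3.70 ± 0.176 in Re-introduction, without overlap between groups. Its direction in Auxin against Mock depended on the length trend. With that trend removed Cry2 rose by 0.43, while Cry1 rose by at least 0.52 under every alternative.

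Both genes of the activator pair were higher in Auxin and showed no called step after washout. Arntl (ENSMUSG00000055116.8, chromosome 7, 113207465 to 113314126, plus strand), the target of NR1D1 repression through the RORE, stood at 16.2, 15.7 and 15.7 CPM in Mock, 27.6, 29.7 and 25.7 CPM in Auxin, and 27.4, 28.0 and 30.0 CPM in Re-introduction. Both treated groups were above every Mock library and overlapped each other. Arntl was higher by 0.80 ± 0.065 (SE, log2) in Auxin (adjusted p = 6.21e-07) and by 0.84 ± 0.066 in Re-introduction (adjusted p = 8.59e-07) than in Mock. The difference between them was 0.04 (95% interval -0.10 to 0.19, adjusted p = 0.616), and its direction turned with total counts alone (-0.04), with the filter of at least 1 CPM (-0.005) and without Auxin replicate 3 or Re-introduction replicate 3 (-0.006 and -0.007). With the length and GC trends removed, the rises against Mock were 0.45 and 0.54, both still called. In the same washout step Nr1d1 rose 3.74-fold. A link between Nr1d1 and Arntl was not tested, and NR1D1 protein was not measured.

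Clock (ENSMUSG00000029238.11, chromosome 5, 76209868 to 76304792, minus strand), which encodes the histone acetyltransferase partner of ARNTL, stood at 24.4, 30.6 and 30.4 CPM in Mock, 64.8, 37.4 and 70.8 CPM in Auxin, and 65.3, 64.6 and 61.7 CPM in Re-introduction. Auxin replicate 2 lay well below the other Auxin libraries, though above every Mock library. The log2 fold changes were 1.02 ± 0.189 (SE) in Auxin against Mock (adjusted p = 0.000479), 0.15 ± 0.186 after washout (95% interval -0.26 to 0.56, adjusted p = 0.544) and 1.17 ± 0.189 in Re-introduction against Mock (adjusted p = 0.000227). Without Auxin replicate 2 the first was 1.25 and the step after washout -0.10, not called. Clock has the longest exons of the members (13727 bases), and with the length and GC trends removed its rises against Mock were 0.27 in Auxin and 0.28 in Re-introduction, still called. The Clock to Arntl ratio per kilobase was 0.980 ± 0.138 (SD, n = 3) in Mock, 1.16 ± 0.421 in Auxin and 1.23 ± 0.0917 in Re-introduction. Auxin overlapped both other groups (exact permutation p = 0.6 and 0.9), and Re-introduction lay above Mock (p = 0.1, the smallest possible). The direction of that last difference depended on the length and GC trends. With them removed, the rise in Re-introduction against Mock was smaller for Clock (0.28) than for Arntl (0.54).

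Dbp, the D-box activator and a direct output of the loop (ENSMUSG00000059824.12, chromosome 7, 45705088 to 45710203, plus strand), fell with Nr1d1. It stood at 7.0, 6.54 and 6.69 CPM in Mock, 4.04, 3.91 and 3.96 CPM in Auxin, and 4.47, 4.83 and 5.54 CPM in Re-introduction. The groups did not overlap, and Re-introduction lay between the others. Dbp was lower by -0.76 ± 0.092 (SE, log2) in Auxin (adjusted p = 1.56e-05) and by -0.45 ± 0.091 in Re-introduction (adjusted p = 0.00118) than in Mock, the latter -0.26 with the length and GC trends removed. The rise after washout was 0.32 ± 0.094 (adjusted p = 0.0149), and was not called without Re-introduction replicate 3 (0.21, adjusted p = 0.0844). Dbp exons share 539 bases with Sphk2, a sphingosine kinase gene on the opposite strand with means of 48.4, 49.1 and 34.5 CPM. Sphk2 was not called in Auxin (0.02) and fell after washout (-0.51), where Dbp rose.

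**Figure D2:**
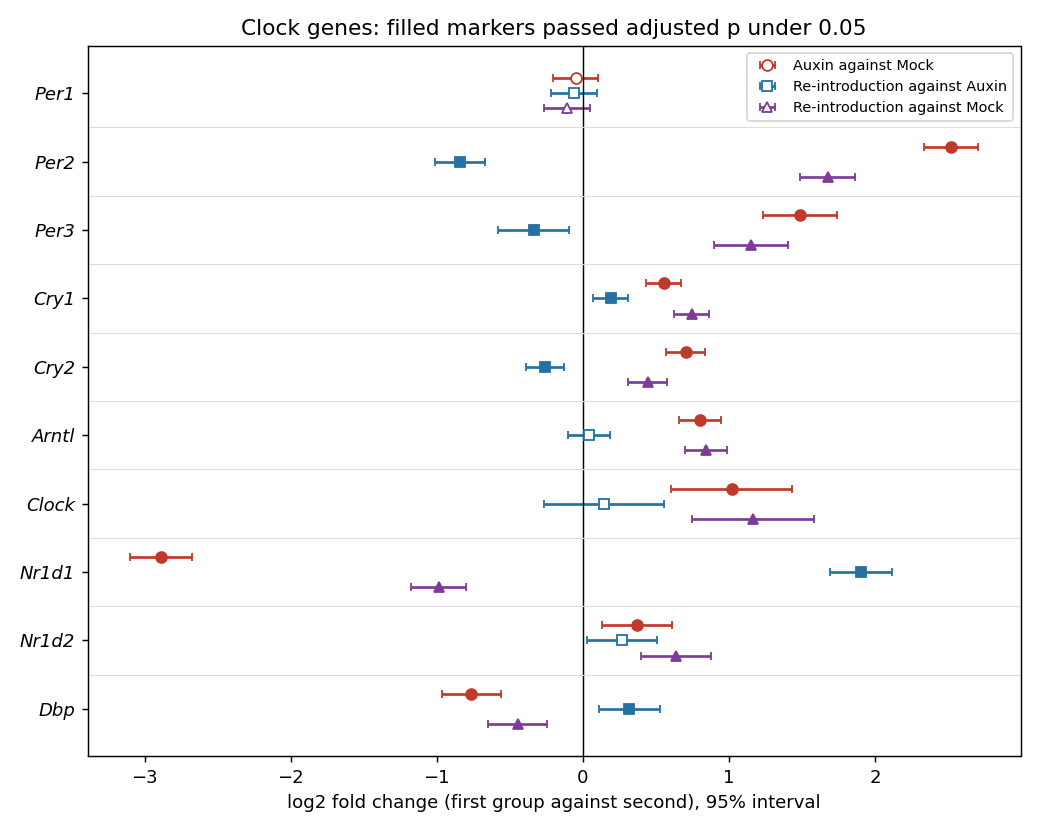
Log2 fold changes of the 10 clock genes with 95% intervals in the 3 comparisons (first group against second). Filled markers passed an adjusted p under 0.05. Nr1d1 and Per2 show the largest changes in Auxin against Mock, and each has a smaller step of opposite sign after washout.

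Exon length moved with these results. Over the protein-coding genes tested, the median of log2 fold changes between Auxin and Mock rose from -0.42 in the decile of shortest exons (median 1132 bases) to 0.62 in the decile of longest (median 11440 bases). Per3 and Clock lie in the longest decile, Arntl in the next (median 0.42), Per1, Per2 and Cry2 in the eighth (0.25) and Nr1d2 in the seventh (0.21). Cry1, Nr1d1 and Dbp share the fourth decile, where the median was -0.07. Each of the 9 called members was further from zero than the median of its decile, and Clock and Nr1d2 lost most of their rise when the trends were removed. After washout the decile medians lay between -0.06 and 0.06. Whether the length trend is of the libraries or of the cells was not tested.

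**Figure D3:**
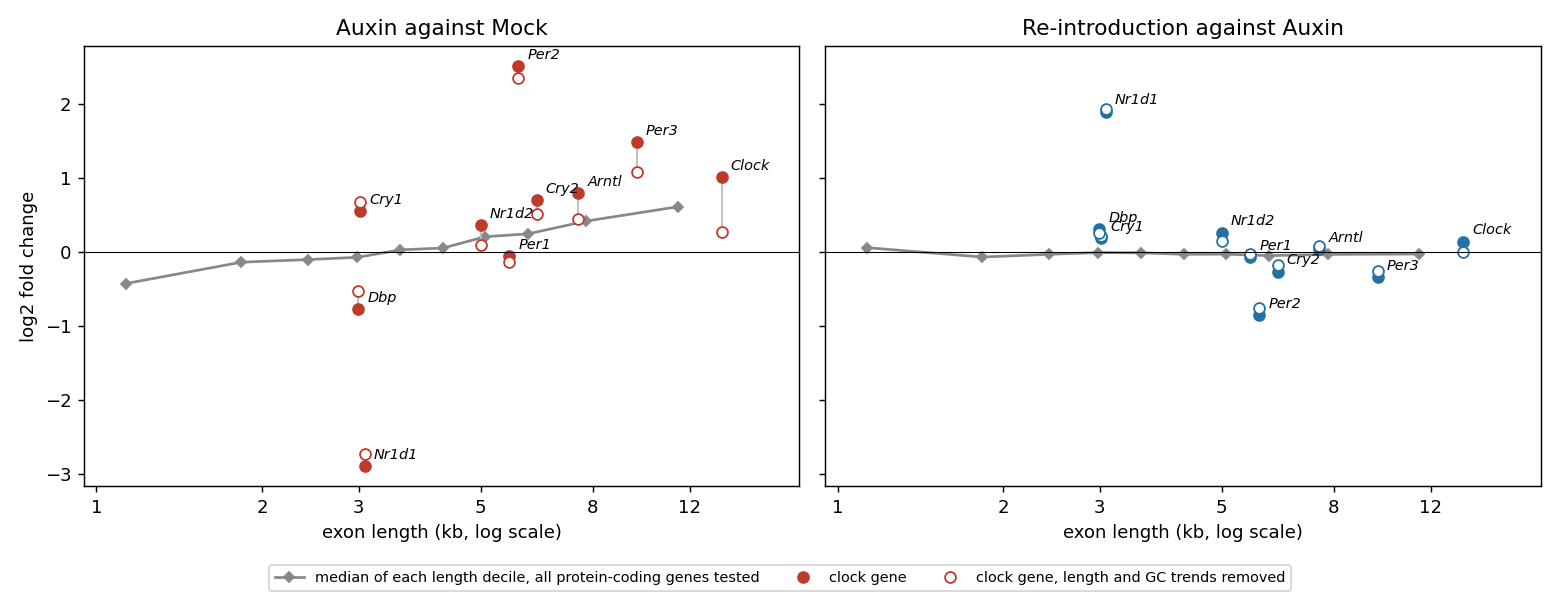
Log2 fold change against exon length (kilobases, log axis) for Auxin against Mock (left) and Re-introduction against Auxin (right). Grey diamonds are medians of length deciles over protein-coding genes tested, filled circles the clock genes, and open circles the same genes with length and GC trends removed. On the left the grey line climbs from -0.42 to 0.62 and Clock drops from 1.02 to 0.27 when the trends are removed; on the right the line stays near 0.

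Levels were ranked per kilobase of unshared exon, as mean CPM per kilobase. Cry1 was highest in each group (11.2 in Mock, 16.4 in Auxin, 18.7 in Re-introduction) and Nr1d2 next (6.24, 8.08 and 9.72). In Mock, Nr1d1 was the third at 4.51, above Cry2 at 3.72. Then came Dbp at 2.75 and Per1 at 2.65, whose libraries overlapped, Arntl at 2.12 and Clock at 2.07, which also overlapped, and last Per2 at 0.391 and Per3 at 0.390, which overlapped as well. In Auxin, Nr1d1 was last at 0.608, below Per3 at 1.09, Dbp at 1.62, Per2 at 2.23 and Per1 at 2.56. Clock at 4.20 and Arntl at 3.69 overlapped there, below Cry2 at 6.06. In Re-introduction, Cry2 at 5.05 overlapped Clock at 4.65, and Arntl at 3.80 was apart from both its neighbours. Per1 at 2.45, Nr1d1 at 2.28 and Dbp at 2.02 overlapped in turn, and Per2 at 1.24 and Per3 at 0.866 were lowest. Nr1d1 thus went from the third place to the last and then to the seventh, while Cry1 and Nr1d2 kept their places.

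The list of paralogues and auxiliary factors of the loop holds other transcription factors and repressors known to act in it. It also holds Timeless and Tipin, described below, which are neither. Of 12 listed, 11 were tested (Rorb was too low). In Auxin against Mock 8 were higher and 3 lower, with a median log2 fold change of 1.33 against 0.05 over all genes. After washout 1 was higher, 6 were lower and 4 were not called (median -0.33 against 0.003), and in Re-introduction against Mock 8 were higher, 2 lower and 1 not called (median 0.68 against 0.03). The share called was 100%, 63.6% and 90.9% in these comparisons, beside 73.2%, 50.9% and 68.1% of all genes. The fixed rule named Bhlhe40, Bhlhe41, Ciart, Tipin, Tef, Nfil3 and Timeless in at least 1 comparison, and the other members below were described after their values were seen.

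Bhlhe40 and Bhlhe41 encode DEC1 and DEC2, which repress transcription at E-boxes. Bhlhe40 stood at 15.5, 16.1 and 15.0 CPM in Mock, 115, 120 and 109 CPM in Auxin, and 59.7, 52.2 and 50.0 CPM in Re-introduction. Its groups did not overlap, and the steps were 2.89 ± 0.076 (SE, log2, adjusted p = 1.76e-10) in Auxin and -1.09 ± 0.071 after washout (adjusted p = 4.19e-07). Bhlhe41 rose from a mean of 0.420 ± 0.019 CPM (SD, n = 3) in Mock to 7.64 ± 0.512 in Auxin and was at 0.708 ± 0.171 in Re-introduction. It rose by 4.18 in Auxin and fell by 3.38 after washout, the widest swing on the list, and shares 1280 bases of exon with other genes.

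Ciart, which encodes the E-box repressor CHRONO, went from 4.50 ± 0.296 CPM (SD, n = 3) to 27.5 ± 2.78 in Auxin and 6.02 ± 0.741 in Re-introduction (2.61, then -2.19). At D-boxes, Nfil3, the repressor that opposes DBP, went from 1.79 ± 0.124 to 8.70 ± 1.00 and 3.97 ± 0.211 CPM (2.28, then -1.13), and Tef, a relative of DBP, from 29.7 ± 1.23 to 75.7 ± 3.01 and 43.4 ± 1.18 CPM (1.35, then -0.80). Dbp itself moved the other way in both steps. Hlf, the other relative of DBP, was lower in Auxin (-0.46, adjusted p = 0.0166). That call was lost with total counts alone, with the 2 groups fitted by themselves and without Auxin replicate 2 (-0.25, -0.43 and -0.32).

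Rora encodes an activator that competes with NR1D1 at ROREs. Rora went from 2.86 to 6.72 and 5.33 CPM. It was higher in Auxin by 1.23, and by 0.90 in Re-introduction, a call that was lost with the length and GC trends removed (0.02). Its step after washout, -0.33, was not called (adjusted p = 0.0915), but was called under 6 alternatives, among them the removal of those trends (-0.49) and the omission of Auxin replicate 2 (-0.49). Npas2 and Arntl2, the paralogues of Clock and Arntl, were higher in both groups than in Mock (Npas2 by 1.33 and 1.31, Arntl2 by 0.91 and 0.68) and were not called after washout. Arntl2 was, however, called lower after washout under 7 of the alternatives, for example with the length and GC trends removed (-0.28) and without Auxin replicate 2 (-0.34). Timeless and Tipin, whose mammalian products form a complex known for protecting replication forks, were lower in Auxin (-0.68 and -1.59). Tipin rose after washout by 0.46, or 0.20 with the length and GC trends removed, and Timeless fell by a further 0.13, a call lost with the length and GC trends removed (-0.04), with the replicate block and under other alternatives.

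**Figure D4:**
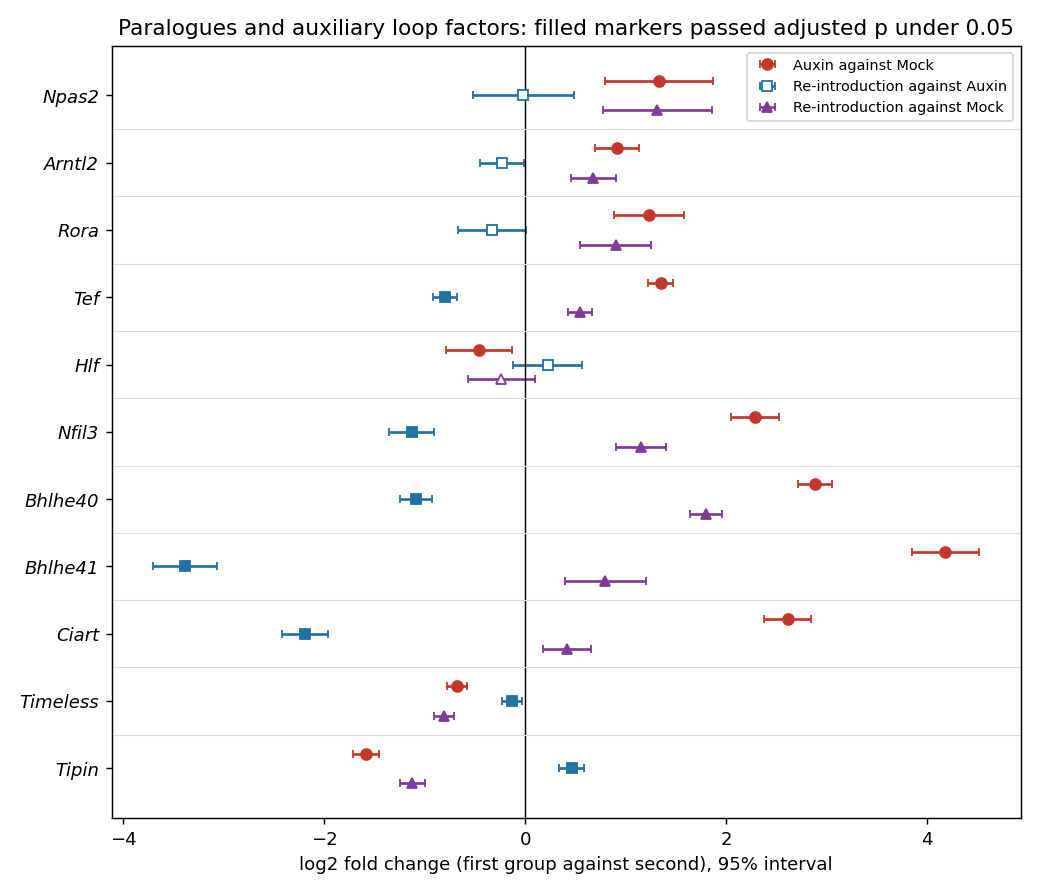
Log2 fold changes with 95% intervals of the 11 tested paralogues and auxiliary factors in the 3 comparisons. Filled markers passed an adjusted p under 0.05. Bhlhe41, Bhlhe40, Ciart and Nfil3 show the largest rises in Auxin, and all of them fell after washout.

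Enzymes and cofactors that act on clock proteins had small median changes. Of 22 tested, 11 were higher, 6 lower and 5 not called in Auxin against Mock (median 0.22 against 0.05 over all genes). After washout 6 were higher, 2 lower and 14 not called (median 0.07 against 0.003), and in Re-introduction against Mock 13 were higher, 5 lower and 4 not called (median 0.18 against 0.03). The share called was 77.3%, 36.4% and 81.8%, beside 73.2%, 50.9% and 68.1% of all genes. In Auxin, the casein kinase 2 subunit gene Csnk2a1 fell by 0.56 and Nono, whose product binds PER proteins, by 0.70. Btrc and Fbxw11, the F-box genes whose products recognise phosphorylated PER, rose by 0.65 and 0.59, with Btrc at 0.29 once the length and GC trends were removed. After washout the deubiquitinase genes Usp7 and Usp14 rose by 0.49 and 0.29, Nampt by 0.27 and Csnk2a1 by 0.16. The calls for Usp14, Nampt and Csnk2a1 were lost with the length and GC trends removed (0.02, 0.06 and 0.13), and that for Csnk2a1 also with total counts (0.08) and without Auxin replicate 1 or Re-introduction replicate 1 (0.14 in each). In Re-introduction against Mock, Prkaa2, a catalytic subunit gene of AMP-activated kinase, and Gsk3b, whose product is a target of CHIR99021, were higher by 1.35 and 0.77 (0.70 and 0.28 with those trends removed), and Csnk2a1 and Nono were lower by -0.40 and -0.56.

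Genes listed as clock outputs in other tissues were called in both directions, as all genes were. Of 14 tested, 6 were higher, 6 lower and 2 not called in Auxin against Mock (median 0.10 against 0.05 over all genes). After washout 6 were higher, 4 lower and 4 not called (median 0.11 against 0.003), and in Re-introduction against Mock 5 were higher, 4 lower and 5 not called (median -0.003 against 0.03). The share called was 85.7%, 71.4% and 64.3%, beside 73.2%, 50.9% and 68.1% of all genes. Herpud1, also known as a gene of the endoplasmic reticulum stress response, had means of 10.5 CPM in Mock, 62.4 in Auxin and 7.63 in Re-introduction (2.57, then -3.03). Klf10, which encodes a repressor, went from 79.4 to 216 and 100 CPM (1.44, then -1.11), and Lonrf3 from 2.98 to 15.2 and 7.27 CPM (2.35, then -1.07). Pdk4, a pyruvate dehydrogenase kinase gene, was higher than in Mock by 1.12 in Auxin and 1.45 in Re-introduction. Slc6a6, the taurine transporter gene, rose by 0.40 after washout, and the tetraspanin gene Tspan4 was lower than in Mock by -1.01 in Re-introduction.

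The genes most like each member were found by Pearson's r of log2 CPM over the 9 libraries, among 15132 genes averaging 1 CPM or more. These values are descriptive: the libraries fall into 3 groups, so any gene with like group means scores high. Per2 was most like Gpr27 and BC034090, and 1522 genes had r over 0.95 with it. Nr1d1 was most like Cdc6 and Pou4f2 (1188 genes over 0.95), Dbp most like Gm14140 and Gm35339 (1025), and Per3 most like 4933421O10Rik and Gm2897 (1315). Cry1 was most like Endod1 and Nup62cl (634), Cry2 most like Ccdc57 and Mkrn3 (1143), and Arntl most like Tusc3 and Calu (858). Clock was most like Nktr and Golga4 (587) and Nr1d2 most like Map7d2 (389). The lowest r of all these pairs was 0.990 (Dbp with Gm35339). Per1 had no gene over 0.95, and its nearest were Mcee (0.930) and Mtch1 (0.925).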

How the data were processed

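Per the file headers, the authors' deposited counts are raw read counts per gene from featureCounts 2.0.6 over mm10 exons, without strand and without the option to count a pair once. Both mates of a pair therefore count, and fewer independent fragments stand behind each value. The submitters' processing notes also name Trim Galore 0.6.10, FastQC 0.12.1, Bowtie2 2.5.3 and SAMtools 1.20; their roles are not given in the sources used here. Overlapping genes on opposite strands are not separated by such counting. Levels per kilobase were divided by unshared exon only, which holds if reads in shared exon were left out of both genes. Whether they were left out was not tested.

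Symbols were matched on gene identifiers (48058 of 48440 genes). Genes passing edgeR's filterByExpr (20838) were scaled with TMM factors (0.905 to 1.08) and fitted by edgeR's quasi-likelihood model over all 9 libraries with group as the only term. Adjusted p-values are Benjamini-Hochberg over all genes tested, called under 0.05, two-sided; the common biological coefficient of variation was 9.15%. The design text calls the replicates biological, but nothing says that they came from separate cultures, and p-values then measure only the spread between these libraries. The tools were edgeR 4.0.16, DESeq2 1.42.0 and limma 3.58.1, run in R 4.3.3. Ratios were tested by exact permutation. Per-library trends on exon length and GC content (GENCODE M21, 99.5% of tested genes) were removed with an offset as an alternative. Others were DESeq2 size factors, total counts, the DESeq2 Wald test, no filter, a minimum of 1 CPM in 3 libraries, only the 2 groups compared, the replicate block, counts halved, and leaving out each library.

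The members and lists were chosen with earlier results of these data known. All 10 members were named, and of each other list the 4 genes with the smallest p-value in each comparison, and the 2 genes most like each member. A few genes to which these rules apply are not reported here and are left out of the list counts. Counts were also simulated for the 20838 genes, with 200 genes changed 2-fold. For Auxin against Mock the test found 76.5% of those 200, for Re-introduction against Auxin 66.0%, and for Re-introduction against Mock 72.0%. Among the simulated calls, 7.83%, 3.65% and 6.49% were false. In the real comparisons 73.2%, 50.9% and 68.1% of genes were called, far more than the simulation changed. These rates therefore describe the simulated counts only. They do not give the recovery or the false share of the calls reported here.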

Additional observations from a re-analysis of the deposited data

How the results depend on the processing

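Over 11 alternatives and the omission of each library, 478 of 510 values of the 10 members kept their direction and side of the threshold, 14 lost the call, 10 gained it and 8 turned direction. Of 1360 values of the other named genes 1315 held, 24 lost the call, 16 gained it and 5 turned. The turned values were these, of which the value of Per1 with total counts in Auxin against Mock was called and the others were not. In Re-introduction against Auxin, Arntl was at -0.0365 with total counts, -0.00467 with the filter of at least 1 CPM, -0.00618 without Auxin replicate 3 and -0.00724 without Re-introduction replicate 3 (up to 0.0798 over the libraries left out), and Clock at -0.102 without Auxin replicate 2 (up to 0.321). Npas2 was at 0.0604 and 0.0655 with length and GC trends removed, without and with the replicate block, 0.132 without Auxin replicate 2, and 0.0124 and 0.0208 without Re-introduction replicates 2 and 3 (down to -0.160). Per1 in Auxin against Mock was at 0.16 with total counts and 0.0199 with that filter, and in Re-introduction against Mock at 0.0208 with total counts. The number of members called in Re-introduction against Auxin ranged from 3 to 6 as each library was left out; without Re-introduction replicate 3 it was 3. The cause was not tested.

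Same-numbered replicates deviated together with correlations of -0.172 to 0.0547, and differently numbered ones with -0.177 to 0.239. This shows no sign of pairing by number, but deviations within groups of 3 libraries cannot exclude it. With the replicate block, 14808 genes were called in Auxin against Mock, 9829 in Re-introduction against Auxin and 13639 in Re-introduction against Mock, with 9, 6 and 9 of the members. Calls of Nr1d1 and Dbp in Auxin rest on 110 to 331 mates a library, and Bhlhe41 and Npas2 are under 1 CPM in Mock, which limits the precision of their fold changes.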

Other observations

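Genes known to be induced by serum, cyclic AMP or glucocorticoids, signals that also act on the Period genes in many cells, were listed as well. Of 13 tested CREB and serum induced genes, 6 were higher, 5 lower and 2 not called in Auxin against Mock (median log2 fold change 0.38 against 0.05 over all genes). After washout 3 were higher, 6 lower and 4 not called (median -0.22 against 0.003), and in Re-introduction against Mock 6 were higher, 4 lower and 3 not called (median 0.22 against 0.03). The share called was 84.6%, 69.2% and 76.9%, beside 73.2%, 50.9% and 68.1% of all genes. Nr4a1, an orphan nuclear receptor gene, had means of 52.4 CPM in Mock, 21.1 in Auxin and 43.0 in Re-introduction (-1.31, then 1.03). Srf, which encodes serum response factor, rose by 0.96 after washout and stood 0.48 above Mock. The early growth response gene Egr1 was at 2.58, 0.525 and 0.60 CPM (-2.31 in Auxin and -2.10 in Re-introduction against Mock), and Ier2 was lower than in Mock by -0.88 in Re-introduction. Sik1, a salt-inducible kinase gene, was at 49.0, 92.3 and 65.4 CPM, and Klf4, also a pluripotency factor, at 335, 584 and 361 CPM. Dusp1, a phosphatase gene on both lists, fell by 0.80 after washout.

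The glucocorticoid list also holds the receptor gene Nr3c1 beside induced genes. Of its 10 genes tested, 5 were higher, 3 lower and 2 not called in Auxin against Mock (median 0.35 against 0.05). After washout 3 were higher, 4 lower and 3 not called (median -0.10 against 0.003), and in Re-introduction against Mock 5 were higher, 4 lower and 1 not called (median 0.43 against 0.03). The share called was 80%, 70% and 90%, beside the same shares of all genes. Tsc22d3, which encodes GILZ, was at 2.26 ± 0.193 CPM (SD, n = 3) in Mock, 21.8 ± 2.26 in Auxin and 4.77 ± 0.142 in Re-introduction (3.27, then -2.19). Nr3c1, the glucocorticoid receptor gene, was at 9.20, 30.9 and 35.4 CPM (1.75 in Auxin and 1.94 in Re-introduction against Mock). Fkbp5 and Sgk1 were lower in Auxin (-0.71 and -0.91), Cebpd and the metallothionein gene Mt2 fell after washout by 0.81 and 0.66, and Mt2 was then lower than in Mock by -1.0, or -0.35 with the length and GC trends removed.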
